A study of Mus musculus with 12 samples.

Results

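The genes of the mouse major histocompatibility complex (MHC) and of antigen presentation are described here: every row of the count table whose symbol starts with H2-, together with B2m, Tap1, Tap2, Tapbp, Cd74, Ciita and Nlrc5. The rule took 45 of 25540 gene symbols, and 35 of these 45 were counted highly enough to be tested. By the class of molecule they encode, 2 rows are classical class I heavy chains, 23 are non-classical class I genes or pseudogenes, 5 are classical class II chains and 6 are non-classical class II genes. The others are B2m, Tap1, Tap2, Tapbp, Nlrc5, Cd74, Ciita, and H2-Ke2 and H2-Ke6, which carry the H2 prefix for their place in the locus and encode no MHC molecule.

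The RNA came from the livers of BALB/c mice, an inbred strain, as 12 samples that form 4 groups of 3. Each group is named for an injected iExos preparation, which is taken from the title of the series to be exosomes, small vesicles that cells release. The groups are siSTAT3 iExos, its control siCntrl iExos, mASO STAT3 iExos and its control mASO Scrbl iExos, where si is the usual prefix for small interfering RNA and ASO for antisense oligonucleotide. The sources used here do not give the meaning of the m in mASO, the age or sex of the mice, or whether the livers were injured, although liver fibrosis stands in the title. All groups, the controls included, received iExos, and livers with no injection were not analysed here. Nothing in the labels states that each sample of a group is a different animal, and p-values therefore reflect sample-to-sample spread, which could be technical.

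Class I molecules consist of a heavy chain bound to beta-2-microglobulin, the product of B2m, and present peptides from inside the cell to CD8 T cells. The peptides are cut by the proteasome, carried into the endoplasmic reticulum by the transporter Tap1 and Tap2, and loaded with the help of tapasin, the product of Tapbp. Class II molecules, which professional antigen-presenting cells carry, take peptides from endosomes with the help of the invariant chain Cd74 and the exchange factor H2-DM, and present them to CD4 T cells. Nlrc5 is the transactivator of class I genes and Ciita that of class II genes, and both act at promoters through shared X and Y boxes. Interferon gamma is the classical inducer of both classes. In liver, hepatocytes secrete the non-classical class I protein H2-Q10, while Kupffer cells, dendritic cells and B cells carry most class II.

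The strain bears on the counts. BALB/c mice carry the H2-d haplotype, whereas the mouse reference genome is that of C57BL/6J, which carries H2-b, so reads of the polymorphic heavy chains may map less well or to a neighbouring gene. The sources used here do not name the build and annotation behind the counts. The table lists the class II alpha chain of I-E as H2-Ea-ps, a pseudogene by the C57BL/6J annotation, since H2-b mice do not transcribe it, while H2-d mice do. It had 1002 to 2250 counts in each of the 12 libraries. H2-L, a class I gene that BALB/c mice carry and C57BL/6 mice lack, was not analysed here, and any of its reads counted under H2-D1 or another heavy chain cannot be told apart. By the GENCODE M21 transcripts, 34.5% of the 50-base windows of H2-T22, 32.9% of H2-T10, 36.4% of H2-Q5, 32.0% of H2-Q6 and 26.4% of H2-Q7 are shared exactly with another gene, against 19.0% of H2-Q10, 12.8% of H2-D1 and 9.63% of H2-K1. The levels of these genes are therefore uncertain where the counting could split such reads. B2m, Cd74, H2-Ab1, H2-Ea-ps and H2-Eb1 share no such window with another gene.

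The promoters of 6 members are shown, because each holds a match to some of the boxes named below, though none to all. The members they belong to also run through the results. They are RefSeq windows of build GRCm38.p6, from 250 bases before to 50 after the annotated start, in C57BL/6J letters, so BALB/c letters may differ. Capitals mark matches on either strand to the Y box GATTGG, the interferon response core GAANNGAAA, the X1 core CCTNGNNAC, the X2-like box TGANGTCA, the STAT site TTCNNNGAA or the kappaB-like site (GGGA, any base, TTCCC), and no matches overlap in these windows. H2-K1 has 2 windows, of which 1 is printed. The windows lie at chr17:34000298-34000597 on the minus strand for H2-K1, chr17:35469839-35470138 on the plus strand for H2-Q10, chr17:36032652-36032951 on the minus strand for H2-T23, chr2:122147437-122147736 on the plus strand for B2m, chr17:34287774-34288073 on the minus strand for H2-Aa and chr17:34152941-34153240 on the plus strand for H2-DMb1.
H2-K1: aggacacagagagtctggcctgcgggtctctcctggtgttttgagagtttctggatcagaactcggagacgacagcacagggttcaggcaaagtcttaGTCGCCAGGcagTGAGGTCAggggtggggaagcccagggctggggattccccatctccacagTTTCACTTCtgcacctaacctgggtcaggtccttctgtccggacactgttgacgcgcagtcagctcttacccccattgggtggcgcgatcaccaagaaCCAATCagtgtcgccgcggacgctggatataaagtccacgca
H2-Q10: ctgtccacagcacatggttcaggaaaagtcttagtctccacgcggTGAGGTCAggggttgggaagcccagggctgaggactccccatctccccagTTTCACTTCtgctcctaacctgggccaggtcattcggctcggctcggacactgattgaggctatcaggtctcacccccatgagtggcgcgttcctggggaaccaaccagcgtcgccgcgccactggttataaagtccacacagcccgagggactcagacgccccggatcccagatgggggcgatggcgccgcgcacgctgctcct
H2-T23: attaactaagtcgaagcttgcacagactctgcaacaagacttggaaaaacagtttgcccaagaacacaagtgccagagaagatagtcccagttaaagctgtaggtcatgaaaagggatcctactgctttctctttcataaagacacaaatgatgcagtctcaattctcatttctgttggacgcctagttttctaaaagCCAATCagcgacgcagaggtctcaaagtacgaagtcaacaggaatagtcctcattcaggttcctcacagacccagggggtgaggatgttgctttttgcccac
B2m: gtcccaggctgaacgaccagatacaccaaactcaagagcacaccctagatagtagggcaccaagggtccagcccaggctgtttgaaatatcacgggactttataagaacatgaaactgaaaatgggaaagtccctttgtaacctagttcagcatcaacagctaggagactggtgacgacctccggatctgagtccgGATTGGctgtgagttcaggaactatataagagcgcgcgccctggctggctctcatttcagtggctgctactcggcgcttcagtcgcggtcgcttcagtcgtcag
H2-Aa: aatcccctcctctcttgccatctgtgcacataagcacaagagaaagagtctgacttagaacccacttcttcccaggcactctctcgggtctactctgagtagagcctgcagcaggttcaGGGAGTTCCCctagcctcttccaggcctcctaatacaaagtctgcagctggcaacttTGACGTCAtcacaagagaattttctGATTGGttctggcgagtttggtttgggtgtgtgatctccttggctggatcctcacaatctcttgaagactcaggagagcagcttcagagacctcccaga
H2-DMb1: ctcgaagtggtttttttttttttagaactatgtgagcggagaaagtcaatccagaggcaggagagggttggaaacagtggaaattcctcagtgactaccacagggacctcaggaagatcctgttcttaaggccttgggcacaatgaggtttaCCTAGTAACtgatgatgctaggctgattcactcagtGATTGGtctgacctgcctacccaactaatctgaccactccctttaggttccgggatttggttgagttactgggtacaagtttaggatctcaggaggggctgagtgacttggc

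Windows of members on chromosome 18, where Cd74 lies, were not used. Of the 35 tested members, 23 had a window that was used. The Y box was matched in 17 of these 23 members, against 16.1% of all 32851 windows of the same length. A member counts here if any of its windows matched, whereas the background is per window. H2-DMa did not match in all of its windows. The interferon response core was matched in 7 of 23, all of them class I genes (H2-D1, H2-K1, H2-M3, H2-Q10, H2-Q4, H2-Q6 and H2-Q7), against 7.52% of all windows. This pattern misses forms with wider spacing, such as gaaactgaaa in the B2m window and tttcactttc in that of H2-T22. The count therefore does not show that the other members lack an interferon element. The X2-like box was matched in 6 and the X1 core in 7 of the 23, against 8.83% and 15.8% of all windows, and the kappaB-like site in 2, against 0.359%. The kappaB-like pattern misses a form with shorter spacing, ggggattcccc, which the windows of H2-K1, H2-D1 and H2-Q6 hold unmarked. The STAT site was matched in H2-DMb2 and H2-M3, 2 of 23, against 8.3% of all windows. The H2-Q10 window holds the X2-like box and the interferon core but no GATTGG, while H2-K1, which is among its nearest relatives by shared sequence, holds the Y box as well. A match describes letters and not a bound site, and a site with other letters or spacing goes unmarked.

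Library totals ran from 39844158 to 67791159 counts, and the 45 members together held 0.446% to 0.524% of the counts in the 6 STAT3 libraries, against 0.355% to 0.427% in the 6 control libraries. Levels are given as CPM, counts scaled to a common library size, with totals adjusted for composition by edgeR's TMM method. The scaling matters here, because TMM factors were 0.804 to 0.901 in the STAT3 libraries and 1.11 to 1.27 in the controls. On unscaled library totals the median log2 fold change over all tested genes is −0.53 for siSTAT3 and −0.63 for mASO STAT3, against −0.04 and −0.05 as reported, so every rise or fall below is relative to that scaling. The targeted transcript did not pass the test in either arm: Stat3 had 109.9 ± 16.2 CPM in siSTAT3 livers against 112 ± 7.50 in siCntrl livers, and 103 ± 13.7 in mASO STAT3 livers against 99.2 ± 8.40 in mASO Scrbl livers (SD, n = 3 each). The tissue label was checked on hepatocyte markers, of which Alb, the gene of serum albumin, stood at 95245 ± 9629 CPM in siSTAT3 livers and 51591 ± 15599 CPM in siCntrl livers.

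Calls were made by the edgeR quasi-likelihood test at a Benjamini-Hochberg adjusted p under 0.05. In the siRNA arm 14 of the 35 tested members were higher, 1 was lower and 20 did not pass. The 14 include H2-Ke6, which passed the filter on low counts only through libraries of the STAT3 groups. Over all 15720 tested genes the calls were dense, with 45.7% called in siSTAT3 livers, 22.4% higher and 23.4% lower. The members' share called, 42.9%, was thus near the background, and their direction was what differed from it, with 30 of 35 fold changes above 0 against 48.1% of all genes. In the mASO arm 23 members were higher, 1 was lower and 11 were not called, against 43.8% of all genes called, 21.3% higher and 22.5% lower, and 33 of 35 fold changes were above 0 against 47.2% of all genes. The median log2 fold change of the members was 0.49 in siSTAT3 livers and 0.78 in mASO STAT3 livers. The members' libraries did not overlap for 15 of 35 in the siRNA arm, 14 higher and 1 lower, against 53% of all genes, 25.5% higher and 27.5% lower. They did not overlap for 25 of 35 in the mASO arm, 24 higher and 1 lower, against 56.8% of all genes, 27.2% higher and 29.6% lower. These counts depend on the scaling: on library totals 2 members were higher and 6 lower in siSTAT3 livers, and 10 higher and 4 lower in mASO STAT3 livers. Over all 15720 genes that scaling called 1655 higher and 7266 lower in siSTAT3 livers, and 1525 higher and 7939 lower in mASO STAT3 livers. Counts on library totals below stand against these numbers. The members' counts with TMM scaling also depend on single libraries, with 9 higher without siSTAT3 library 3 and 7 without siCntrl library 1. The number lower was 0 without siCntrl library 2 and 2 without siSTAT3 library 2 or siCntrl library 3. In the mASO arm no member was called lower once any 1 of its 6 libraries was left out.

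**Figure D1:**
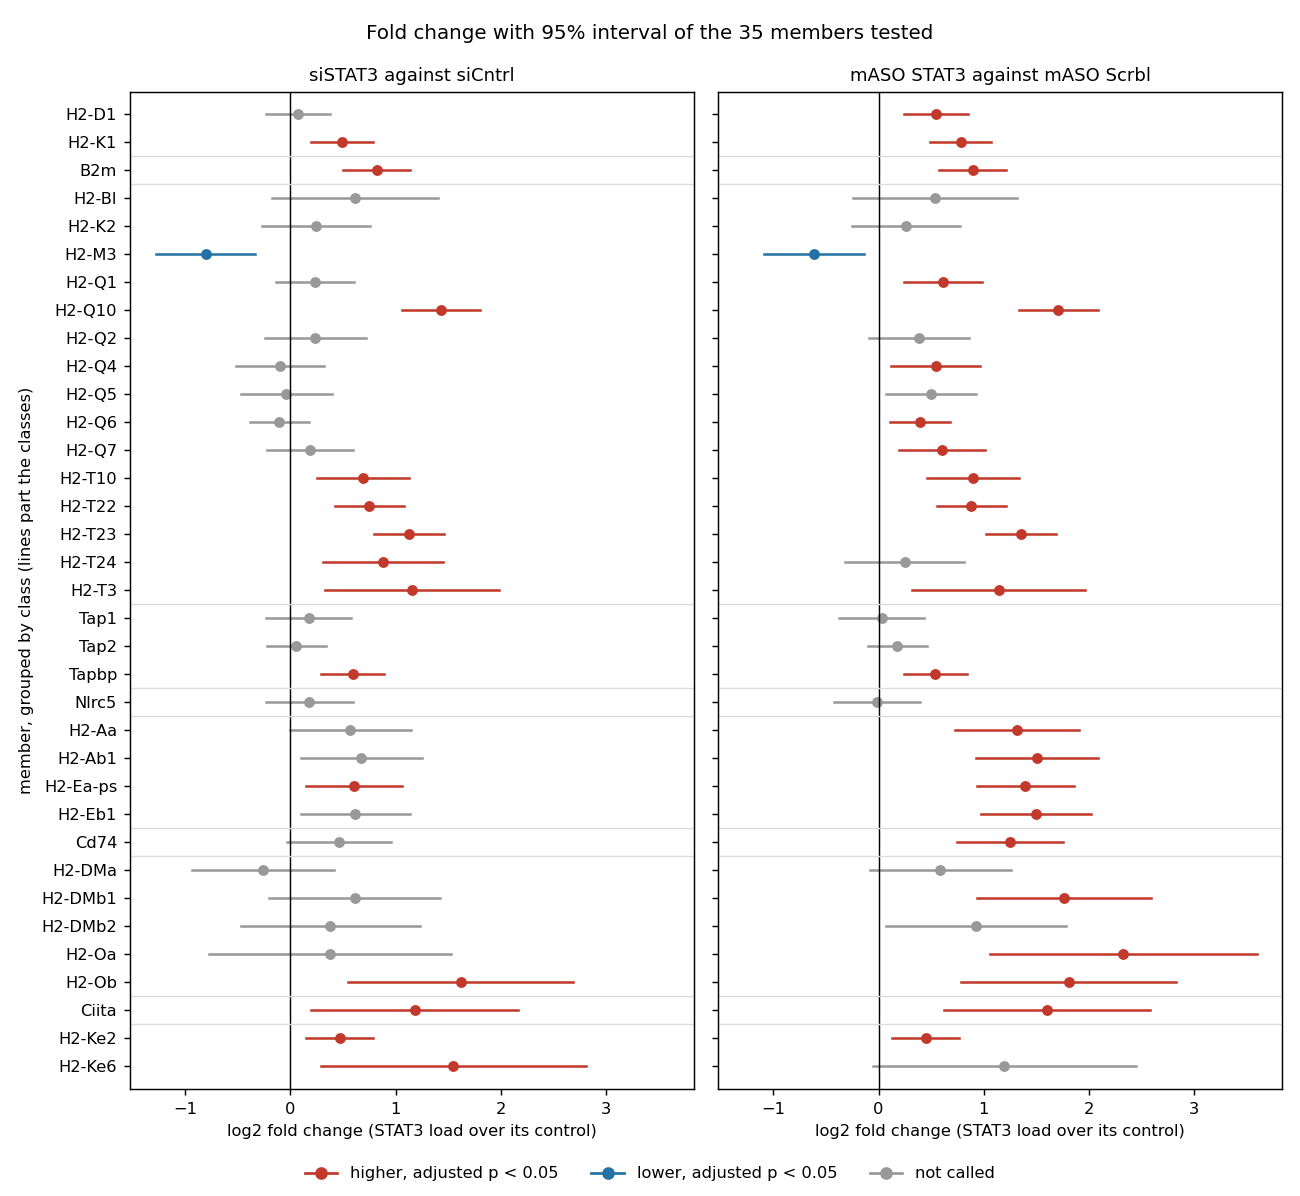
Log2 fold change with its 95% interval (x axis) for the 35 tested members (rows, grouped by class), siSTAT3 against siCntrl on the left and mASO STAT3 against mASO Scrbl on the right, all with TMM scaling. H2-Q10 and H2-T23 stand well above 0 in both panels, H2-M3 lies below 0 in both, most class II genes sit further right in the mASO panel, and of the members called higher H2-K1 and H2-Ke2 in the siRNA panel and H2-D1, H2-Ke2, H2-Q4, H2-Q6 and Tapbp in the mASO panel turn below 0 on library totals.

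The class I genes did not move alike. H2-Q10, the class I protein that hepatocytes secrete, had 1290.4, 1330.1 and 1142 CPM in the siSTAT3 livers, against 508, 372 and 516 CPM in the siCntrl livers. In the other arm it had 1444, 1293 and 1432 CPM in mASO STAT3 livers, against 454, 337 and 485 CPM in mASO Scrbl livers. All 6 STAT3 libraries thus held more than 2 times the level of any control library. The log2 fold change was 1.43 ± 0.17 (SE, edgeR adjusted p = 2.13e-05) in siSTAT3 livers and 1.71 ± 0.17 (edgeR adjusted p = 4.91e-06) in mASO STAT3 livers, which are folds of 2.70 and 3.27. H2-Q10 passed in every alternative setting in both arms, library totals included, where its log2 fold change was 0.95 in siSTAT3 livers and 1.13 in mASO STAT3 livers.

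The classical heavy chains changed less. H2-K1 had 591, 703 and 591 CPM in the siSTAT3 livers and 445, 452 and 443 CPM in the siCntrl livers, and the groups did not overlap. In the mASO arm it had 697, 600.2 and 696 CPM with mASO STAT3, against 441, 357 and 364 CPM with mASO Scrbl, again without overlap. Its log2 fold change was 0.49 ± 0.14 in siSTAT3 livers (edgeR adjusted p = 0.00935) and 0.78 ± 0.14 in mASO STAT3 livers (edgeR adjusted p = 0.000445), but on library totals it was −0.0060 in siSTAT3 livers and no longer called in mASO STAT3 livers. H2-D1 had 779.9, 702 and 789 CPM in the siSTAT3 livers and 721, 713 and 725 CPM in the siCntrl livers, and here the groups overlapped. It had 871, 827 and 985 CPM in mASO STAT3 livers against 724, 568 and 542 CPM in mASO Scrbl livers. The log2 fold change of H2-D1 was 0.07 ± 0.14 in siSTAT3 livers (edgeR adjusted p = 0.70) and 0.55 ± 0.14 in mASO STAT3 livers (edgeR adjusted p = 0.00665), and both turned negative on library totals, at −0.42 in siSTAT3 livers and −0.032 in mASO STAT3 livers. The difference between the arms for H2-D1 was 0.48, with a 95% interval of 0.04 to 0.91, and it did not pass adjustment (edgeR adjusted p = 0.667).

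B2m, the light chain that every class I molecule needs, was higher in both arms. It had 1636, 1528 and 1881 CPM in siSTAT3 livers and 1092, 904 and 855 CPM in siCntrl livers. It had 1677, 1681 and 1848 CPM in mASO STAT3 livers and 979, 839 and 978 CPM in mASO Scrbl livers. The STAT3 libraries did not overlap the controls, and the log2 fold changes were 0.82 ± 0.15 (edgeR adjusted p = 0.000515) in siSTAT3 livers and 0.90 ± 0.15 (edgeR adjusted p = 0.000279) in mASO STAT3 livers. On library totals B2m kept its sign, with 0.33 in siSTAT3 livers and 0.32 in mASO STAT3 livers, and lost the call in both.

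**Figure D2:**
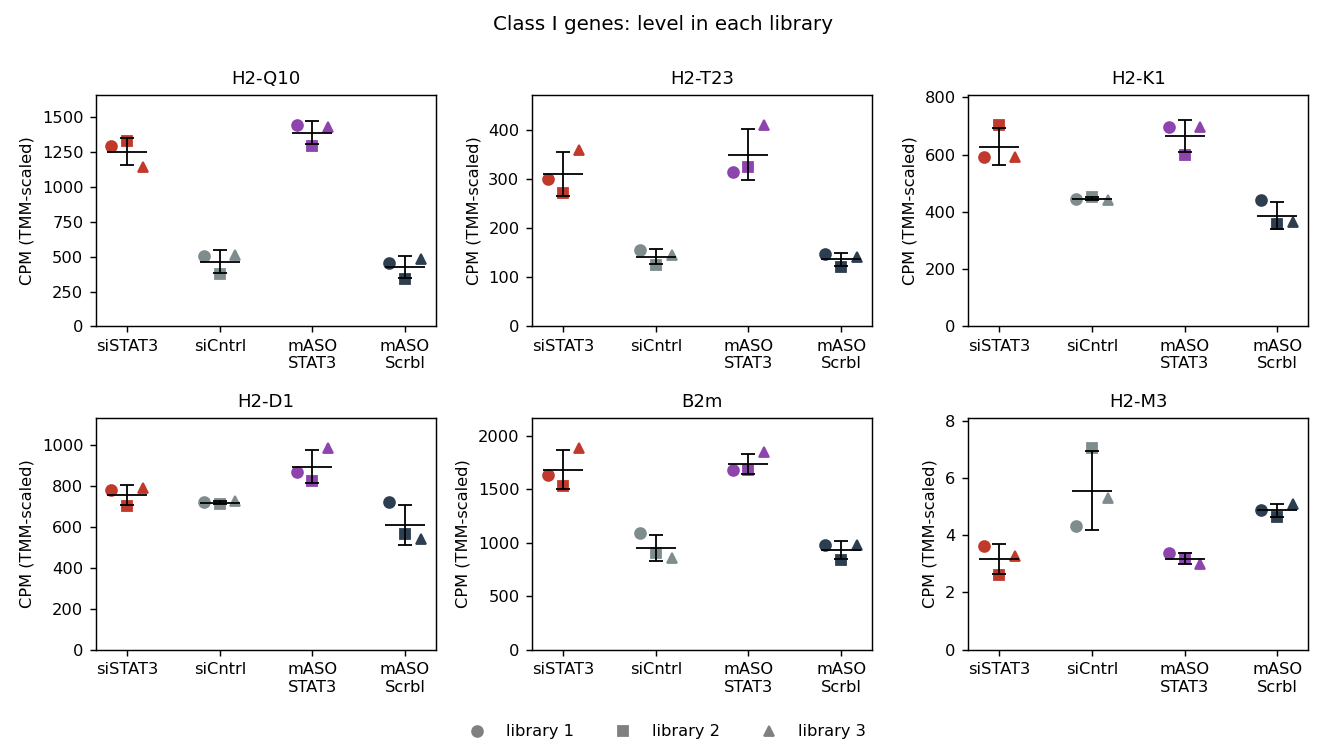
Level in CPM on TMM-scaled totals (y axis, from 0) of 6 class I genes in each of the 3 libraries of the 4 groups (symbols, library 1 to 3), with the mean and SD as bars. H2-Q10, H2-T23 and B2m are higher in every STAT3 library than in any control library, H2-D1 overlaps in the siRNA arm and turns below its controls on library totals in both arms, H2-K1 does so in the siRNA arm, and H2-M3 is lower in both STAT3 groups.

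Because all class I heavy chains were counted in the same library, their ratios do not depend on the scaling. H2-Q10 made up 39.6%, 40.0% and 35.8% of the counts of the 25 class I heavy-chain rows in siSTAT3 libraries, against 24.3%, 19.2% and 24.8% in siCntrl libraries. In the mASO arm its share was 39.4%, 38.1% and 36.8% with mASO STAT3, against 22.2%, 21.4% and 27.5% with mASO Scrbl. The means were 38.4% ± 2.34 against 22.8% ± 3.08 (SD, n = 3 each) in the siRNA arm and 38.1% ± 1.31 against 23.7% ± 3.32 in the mASO arm. No STAT3 library came below 35.8% and no control library above 27.5%, although 3 samples against 3 cannot give a two-sided exact permutation p below 0.1. The ratio of H2-Q10 to H2-K1 counts was 2.0 ± 0.158 in siSTAT3 libraries and 1.04 ± 0.191 in siCntrl libraries, and 2.09 ± 0.0523 with mASO STAT3 and 1.10 ± 0.203 with mASO Scrbl. H2-D1 moved the other way against H2-K1, with a count ratio of 1.22 ± 0.191 in siSTAT3 libraries and 1.61 ± 0.0320 in siCntrl libraries, and 1.35 ± 0.0863 with mASO STAT3 and 1.57 ± 0.0789 with mASO Scrbl. These ratios show unequal change within the class and not that any gene stayed the same.

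**Figure D3:**
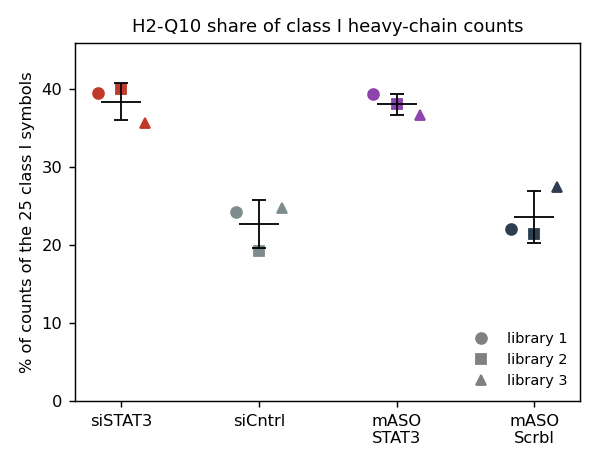
Counts of H2-Q10 as a percentage of the counts of the 25 class I heavy-chain rows (y axis, from 0) in each library of the 4 groups, with mean and SD as bars. The 6 STAT3 libraries sit between 35.8% and 40.0% and the 6 control libraries between 19.2% and 27.5%.

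Per kilobase of exon, by GENCODE M21 lengths, the order of the heavy chains differed between the groups. In siSTAT3 livers H2-D1 had 293 ± 18.7 CPM per kb, H2-Q10 288 ± 22.8 and H2-K1 214 ± 22.2, so that H2-D1 and H2-Q10 lay within each other's spread. In siCntrl livers the same level was 279 ± 2.37 for H2-D1, 152 ± 1.74 for H2-K1 and 107 ± 18.5 for H2-Q10. H2-Q10 thus ranked above H2-K1 in siSTAT3 livers and below it in siCntrl livers. This order rests on the exon lengths used, 4348 bases for H2-Q10 and 2938 for H2-K1. By counts alone the ratio of H2-Q10 to H2-K1 in siCntrl libraries was 1.04 ± 0.191. In mASO STAT3 livers H2-D1 had 347 ± 31.6 CPM per kb, H2-Q10 320 ± 19.3 and H2-K1 226 ± 19.0, while in mASO Scrbl livers they had 237 ± 38.2, 97.8 ± 17.9 and 132 ± 15.9. B2m, a much shorter transcript, stood above all heavy chains with 1955 ± 210.3 CPM per kb in siSTAT3 livers and 1105 ± 145 in siCntrl livers.

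Among the non-classical class I genes, 6 of the 15 tested were higher and 1 lower in siSTAT3 livers, where 22.4% of all genes were higher and 23.4% lower. In mASO STAT3 livers 9 were higher and 1 lower, where 21.3% and 22.5% of all genes were. On library totals these counts were 2 higher and 4 lower in siSTAT3 livers, and 2 higher and 1 lower in mASO STAT3 livers, and 5 were higher in mASO STAT3 livers without mASO STAT3 library 3, mASO Scrbl library 2 or mASO Scrbl library 3. H2-T23 encodes Qa-1, which presents leader peptides of class I molecules to inhibitory receptors of natural killer cells. It had 299, 271 and 359 CPM in siSTAT3 livers and 155, 125 and 145 CPM in siCntrl livers. It had 314, 325 and 409 CPM in mASO STAT3 livers and 147, 121 and 141 CPM in mASO Scrbl livers. No STAT3 library overlapped a control, and the log2 fold changes were 1.13 ± 0.15 (edgeR adjusted p = 5.82e-05) in siSTAT3 livers and 1.36 ± 0.16 (edgeR adjusted p = 1.31e-05) in mASO STAT3 livers. H2-T23 passed in every setting tried in both arms, and on library totals its log2 fold change was 0.64 in siSTAT3 livers and 0.77 in mASO STAT3 livers.

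H2-T22 and H2-T10, which bind gamma delta T cell receptors, rose together. Since they share 31.2% of the windows of H2-T22, their separate levels are uncertain. H2-T22 had 90.7 ± 12.8 CPM in siSTAT3 livers and 53.8 ± 3.71 in siCntrl livers, a log2 fold change of 0.75 ± 0.15 (edgeR adjusted p = 0.00118). In mASO STAT3 livers it had 100.2 ± 14.1 CPM, against 54.3 ± 8.19 in mASO Scrbl livers, a log2 fold change of 0.88 ± 0.15 (edgeR adjusted p = 0.000372). H2-T10 was higher by 0.69 ± 0.20 on the log2 scale in siSTAT3 livers, a call lost without siSTAT3 library 2, and by 0.90 ± 0.20 in mASO STAT3 livers. H2-T3, the thymus leukaemia antigen, was thinly counted, with 1.14 ± 0.206 CPM in siSTAT3 livers and 0.508 ± 0.181 CPM in siCntrl livers. It had log2 fold changes of 1.16 ± 0.39 in siSTAT3 livers and 1.14 ± 0.38 in mASO STAT3 livers. Its call was lost without siSTAT3 library 1 or 3, siCntrl library 1 or 2, any mASO STAT3 library, and mASO Scrbl library 1 or 3. On library totals H2-T22, H2-T10 and H2-T3 were not called in either arm.

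H2-T24 was higher in siSTAT3 livers, with 6.62 ± 2.41 CPM against 3.59 ± 0.577 CPM in siCntrl livers (log2 fold change 0.88 ± 0.26, edgeR adjusted p = 0.0147), a call lost on library totals and without siSTAT3 library 3 or siCntrl library 1. The mASO STAT3 livers had 5.72 ± 1.37 CPM against 4.83 ± 0.353 CPM in mASO Scrbl livers, which was not called. H2-Q1, H2-Q4, H2-Q6 and H2-Q7, further genes of the Q region, were called higher in mASO STAT3 livers, with log2 fold changes of 0.62, 0.54, 0.39 and 0.60, where H2-Q4 and H2-Q6 turned negative on library totals. In siSTAT3 livers the same genes were not called, with log2 fold changes of 0.24, −0.10, −0.11 and 0.19. The difference between the arms was not called for any of them, and without mASO Scrbl library 2, which had the lowest H2-Q4 level at 42.4 CPM, none of the 4 passed. H2-Bl, H2-K2, H2-Q2 and H2-Q5, of which all but H2-Q2 are annotated as pseudogenes, did not pass in either arm.

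H2-M3, which presents formylated peptides of bacteria and mitochondria, was the member called lower in both arms. It had 3.64, 2.60 and 3.29 CPM in siSTAT3 livers and 4.33, 7.04 and 5.30 CPM in siCntrl livers. With mASO STAT3 it had 3.37, 3.19 and 2.98 CPM and in mASO Scrbl livers 4.87, 4.65 and 5.10 CPM. The groups did not overlap in either arm, and siCntrl library 2 was the highest of all 12. The log2 fold change was −0.81 ± 0.22 in siSTAT3 livers (edgeR adjusted p = 0.00889), and without siCntrl library 2 it was −0.60 and no longer called (edgeR adjusted p = 0.053). It was −0.62 ± 0.22 in mASO STAT3 livers (edgeR adjusted p = 0.0356), a call lost without any 1 library.

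The genes that load class I molecules were not all called. Tapbp, which encodes tapasin, had 158, 199 and 182 CPM in siSTAT3 livers and 113, 108 and 136 CPM in siCntrl livers. With mASO STAT3 it had 176, 159 and 185 CPM, against 118, 106 and 134 CPM in mASO Scrbl livers. The groups did not overlap, and the log2 fold changes were 0.59 ± 0.14 in siSTAT3 livers (edgeR adjusted p = 0.00356) and 0.54 ± 0.14 in mASO STAT3 livers (edgeR adjusted p = 0.00653), though on library totals Tapbp was not called in either arm and its sign turned in mASO STAT3 livers, at −0.042. The peptide transporter was not called: Tap1 had 28.1 ± 7.33 CPM in siSTAT3 livers and 24.8 ± 1.89 in siCntrl livers, and 23.2 ± 4.12 in mASO STAT3 livers and 22.8 ± 3.3 in mASO Scrbl livers. For Tap2 the values were 39.2 ± 5.18 CPM in siSTAT3 livers, 37.7 ± 1.62 in siCntrl livers, 39.9 ± 3.73 in mASO STAT3 livers and 35.3 ± 3.56 in mASO Scrbl livers. The 95% interval of the log2 fold change ran from −0.23 to 0.58 for Tap1 and from −0.22 to 0.34 for Tap2 in siSTAT3 livers. Changes of the size seen for H2-Q10 lie outside both, but that of H2-K1, 0.49, lies within the interval of Tap1. The interval of Tapbp there, 0.29 to 0.89, overlaps both, so Tapbp and the transporter were not shown to differ. On library totals Tap2 was called lower in both arms, at −0.44 in siSTAT3 livers and −0.40 in mASO STAT3 livers, and Tap1 in mASO STAT3 livers, at −0.55. Exons of Tap1 overlap those of Psmb9 on the other strand, and the sources used here do not say whether counting used strand.

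Nlrc5, the class I transactivator, had 14.6, 26.7 and 19.5 CPM in siSTAT3 livers and 19.6, 19.4 and 14.5 CPM in siCntrl livers, and 21.3, 22.3 and 19.2 CPM in mASO STAT3 livers and 20.8, 22 and 20.6 CPM in mASO Scrbl livers. Both arms overlapped, with log2 fold changes of 0.18 ± 0.19 in siSTAT3 livers (edgeR adjusted p = 0.464) and −0.012 ± 0.19 in mASO STAT3 livers (edgeR adjusted p = 0.967). Its 95% interval in mASO STAT3 livers was −0.42 to 0.40. On library totals Nlrc5 was called lower in mASO STAT3 livers, at −0.59 (edgeR adjusted p = 0.0225), and not in siSTAT3 livers, at −0.32.

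Class II genes were higher in mASO STAT3 livers and less uniform in the siRNA arm. H2-Aa, the alpha chain of I-A, had 91.9, 71.3 and 61.0 CPM in mASO STAT3 livers and 30.5, 28.6 and 30.9 CPM in mASO Scrbl livers. In the siRNA arm it had 45.6, 48.9 and 63.2 CPM in siSTAT3 livers and 21.2, 53.5 and 31.3 CPM in siCntrl livers. The mASO groups stood apart, whereas siCntrl library 2 reached into the siSTAT3 range. The other chains followed the same pattern: H2-Ab1, the beta chain of I-A, had 87.5, 71.8 and 62.4 CPM with mASO STAT3 and 25.2, 23.4 and 29.5 CPM with mASO Scrbl. H2-Eb1, the beta chain of I-E, had 71.4, 63.2 and 49.5 CPM with mASO STAT3 and 22.1, 19.6 and 23.5 CPM with mASO Scrbl. H2-Ea-ps, the alpha chain of I-E, had 46.7, 42.8 and 38.2 CPM with mASO STAT3 and 16, 15 and 17.6 CPM with mASO Scrbl. In each of these genes every mASO STAT3 library stood above the highest mASO Scrbl library.

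All 4 tested classical class II chains rose in mASO STAT3 livers, and they did so in every setting tried, library totals included. The log2 fold changes were 1.32 ± 0.27 for H2-Aa (edgeR adjusted p = 0.00169), 1.51 ± 0.27 for H2-Ab1 (edgeR adjusted p = 0.000617), 1.5 ± 0.24 for H2-Eb1 (edgeR adjusted p = 0.000272) and 1.39 ± 0.21 for H2-Ea-ps (edgeR adjusted p = 0.000151). Cd74, the invariant chain that escorts class II to the endosome, had 209, 197 and 149.6 CPM in mASO STAT3 livers and 78.7, 72.1 and 82.9 CPM in mASO Scrbl livers, a log2 fold change of 1.25 ± 0.23 (edgeR adjusted p = 0.000751). In siSTAT3 livers 1 of the 4 chains was called, H2-Ea-ps with a log2 fold change of 0.61 ± 0.21 (edgeR adjusted p = 0.0306), although its groups overlapped. H2-Eb1 had 0.62 ± 0.24 (edgeR adjusted p = 0.0502), H2-Ab1 0.68 ± 0.27 (edgeR adjusted p = 0.0528) and H2-Aa 0.57 ± 0.27 (edgeR adjusted p = 0.0990), and none of these passed. Cd74 had 118, 119 and 167 CPM in siSTAT3 livers and 65.7, 137 and 90.5 CPM in siCntrl livers and was not called either (log2 fold change 0.46 ± 0.23, edgeR adjusted p = 0.118).

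The siRNA result rests on single libraries. Without siCntrl library 2, which had the highest class II levels of its group, all 4 chains passed in siSTAT3 livers, with log2 fold changes of 1.0 for H2-Aa, 1.12 for H2-Ab1, 0.97 for H2-Eb1 and 0.94 for H2-Ea-ps, and Cd74 passed with 0.78. Without siSTAT3 library 1, 2 of the chains passed, and without siSTAT3 library 3, siCntrl library 1 or siCntrl library 3 none did. On library totals none of the 4 was called in siSTAT3 livers, H2-Aa had a log2 fold change of 0.04 and Cd74 turned to −0.06. The difference between the arms was 0.74 for H2-Aa, 0.83 for H2-Ab1, 0.88 for H2-Eb1, 0.79 for H2-Ea-ps and 0.79 for Cd74 on the log2 scale, higher in the mASO arm, and none passed adjustment (edgeR adjusted p from 0.643 to 0.693). The 95% interval for H2-Eb1 was 0.15 to 1.61, so the arms were not shown to differ or to be alike.

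**Figure D4:**
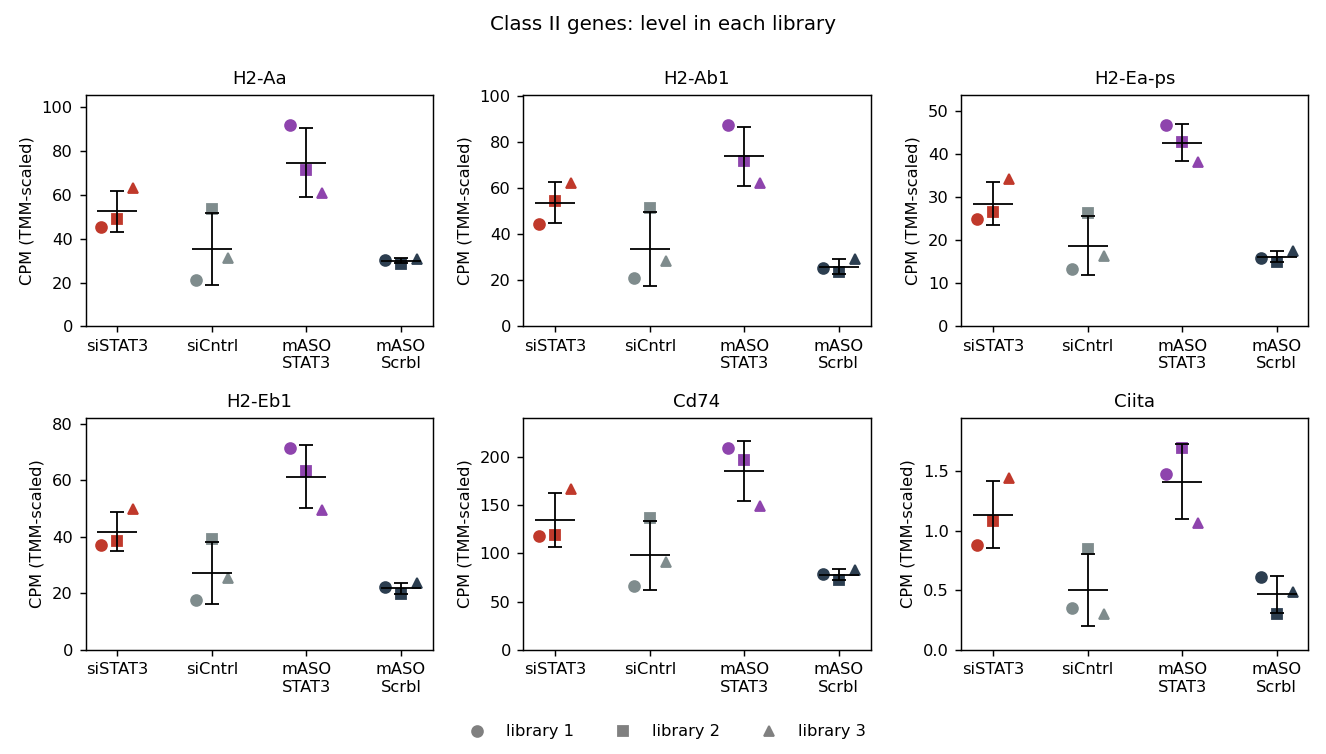
Level in CPM on TMM-scaled totals (y axis, from 0) of 6 class II genes in each library of the 4 groups, with mean and SD as bars. Every mASO STAT3 library lies above every mASO Scrbl library for all 6 genes, whereas siCntrl library 2 (square) reaches the siSTAT3 range for all but Ciita, and on library totals Cd74 turns below its control in the siRNA arm.

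The peptide exchange factor H2-DM and its inhibitor H2-DO, whose chains are encoded by H2-Oa and H2-Ob, were far less abundant than the class II chains they serve. H2-DMb1, a beta chain of H2-DM, had 5.32, 2.95 and 4.11 CPM in mASO STAT3 livers and 1.42, 0.920 and 1.29 CPM in mASO Scrbl livers, a log2 fold change of 1.77 ± 0.39 (edgeR adjusted p = 0.00221). In siSTAT3 livers it had 2.28, 3.57 and 3.07 CPM, against 0.960, 3 and 1.88 CPM in siCntrl livers, and it was not called (log2 fold change 0.61 ± 0.38) unless siCntrl library 2 was left out, when it was 1.06. H2-DMb2, which shares 21.2% of its windows with H2-DMb1, did not pass in either arm. H2-DMa, the alpha chain, had 7.56 ± 0.564 CPM in mASO STAT3 livers and 5.03 ± 0.811 in mASO Scrbl livers, and 6.05 ± 1.68 in siSTAT3 livers and 7.22 ± 3.64 in siCntrl livers. It was not called in either arm, and its exons overlap those of Brd2 on the other strand.

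The count ratio of H2-Aa to H2-DMa, which does not depend on the scaling, was 8.88 ± 1.36 in siSTAT3 libraries and 5.01 ± 0.533 in siCntrl libraries, and 9.82 ± 1.41 with mASO STAT3 and 6.06 ± 0.810 with mASO Scrbl. In both arms the libraries did not overlap in this ratio. H2-Ob was higher in both, with 0.525 ± 0.221 CPM in siSTAT3 livers and 0.169 ± 0.0287 in siCntrl livers (log2 fold change 1.62 ± 0.50, edgeR adjusted p = 0.0166), a call lost on library totals and without siSTAT3 library 3 or siCntrl library 1. In mASO STAT3 livers it had 0.988 ± 0.263 CPM and in mASO Scrbl livers 0.280 ± 0.125 CPM (log2 fold change 1.81 ± 0.47, edgeR adjusted p = 0.00717). H2-Oa was counted 3 to 16 times per library and passed in mASO STAT3 livers, where it had 10, 7 and 13 counts against 3, 3 and 4 in mASO Scrbl libraries. Its counts in the siRNA arm were 9, 11 and 6 with siSTAT3 and 16, 13 and 7 with siCntrl. The log2 fold change of mASO Scrbl against siCntrl was −1.98 for H2-Oa and was not called (edgeR adjusted p = 0.513).

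Ciita, the class II transactivator, was thinly counted. It had 0.883, 1.08 and 1.44 CPM in siSTAT3 livers and 0.347, 0.847 and 0.302 CPM in siCntrl livers, a log2 fold change of 1.18 ± 0.46 (edgeR adjusted p = 0.0483). In mASO STAT3 livers it had 1.48, 1.69 and 1.07 CPM and in mASO Scrbl livers 0.607, 0.303 and 0.483 CPM, a log2 fold change of 1.60 ± 0.46 (edgeR adjusted p = 0.0114). The groups did not overlap, but the siRNA call was lost without any 1 library except siCntrl library 2, whose removal raised the log2 fold change to 1.79, and the mASO call was lost without mASO Scrbl library 2. On library totals Ciita was not called in either arm, at 0.65 in siSTAT3 livers (edgeR adjusted p = 0.268) and 1.04 in mASO STAT3 livers (edgeR adjusted p = 0.0771). Exons of Ciita overlap those of Dexi on the other strand. H2-Ke2 encodes a prefoldin subunit and H2-Ke6 a hydroxysteroid dehydrogenase. H2-Ke2 had 50.9 ± 9.79 CPM in siSTAT3 livers and 36.8 ± 2.98 in siCntrl livers, and 51.7 ± 5.50 in mASO STAT3 livers and 37.9 ± 3.53 in mASO Scrbl livers, with log2 fold changes of 0.47 and 0.45 that both turned negative on library totals. Its call was lost without siSTAT3 library 2, siCntrl library 1 or siCntrl library 2, and without mASO STAT3 library 1 or 3 or mASO Scrbl library 1 or 2. H2-Ke6 had 5 to 17 counts per library and shares 70.5% of its windows with the readthrough gene Gm20427. Only libraries of the STAT3 groups brought it past the filter on low counts, so its call in siSTAT3 livers carries no weight. That call was kept in 2 of 12 alternative settings and lost in DESeq2 and limma voom. H2-Ke6 is not described further.

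The 10 members that did not pass the filter on low counts were H2-M10.1, H2-M10.2, H2-M10.6, H2-M2, H2-M5, H2-M6-ps, H2-M9, H2-Q3, H2-Eb2 and H2-Pa. Each had 1 to 73 counts summed over the 12 libraries. The H2-M10 genes, which are known from the vomeronasal organ, had 2 to 6 counts in all. The class II members of this set were H2-Eb2, with 15 counts over 9 libraries, and the pseudogene H2-Pa, with 2 counts in all. H2-Q3 was counted in all 12 libraries, with 73 counts in all.

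The arms and their controls can be set side by side. The 2 arms share no library, yet the sources used here do not say whether they shared a sequencing run, so arm and run cannot be told apart. Of the 35 members 0 passed the edgeR test of the difference between the arms, where 0.00636% of all genes were called, with 9 members at an unadjusted p under 0.05, all higher in the mASO arm, against 7.39% of all genes. DESeq2 called 0 of 35, with 8 at an unadjusted p under 0.05 against 8.58% of all genes. Limma voom called 0, with 7 against 6.55%. Between mASO Scrbl and siCntrl 0 members passed in edgeR, where 0.0127% of all genes were called. An unadjusted p under 0.05 was found for 2 of the 35, H2-Q6 and H2-Oa, both lower in mASO Scrbl, against 7.85% of all genes. The control libraries did not overlap for 2 members higher and 2 lower in mASO Scrbl of the 35, against 6.75% and 5.67% of all genes. DESeq2 called 0 with 2 at an unadjusted p under 0.05, against 9.18% of all genes, and limma voom 0 with 3, against 9.43%. Summed over the 5 classical class II rows the level was 252.6 ± 43.3 CPM in mASO STAT3 livers and 177 ± 29.6 CPM in siSTAT3 livers, against 94.0 ± 7.39 CPM in mASO Scrbl livers and 115 ± 50.1 CPM in siCntrl livers.

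Other genes of the presentation pathway were counted from lists that, like the members, were drawn up with earlier results of these data known. With TMM scaling 22.4% of all genes were called higher and 23.4% lower in siSTAT3 livers, and 21.3% and 22.5% in mASO STAT3 livers. The counts of each list below stand against these shares. Those on library totals stand against 1655 higher and 7266 lower of 15720 genes in siSTAT3 livers, and 1525 and 7939 in mASO STAT3 livers. The immunoproteasome cuts peptides for class I, and all 5 of its tested genes were higher in both arms, with a median log2 fold change of 0.99 in siSTAT3 livers and 1.06 in mASO STAT3 livers, against −0.04 and −0.05 over all genes. Psmb8, a catalytic subunit, had 59.6 ± 11.7 CPM in siSTAT3 livers and 27.5 ± 2.70 in siCntrl livers, and 64.9 ± 8.95 in mASO STAT3 livers and 29.1 ± 5.24 in mASO Scrbl livers. Psmb10, another catalytic subunit, had 98.9 ± 31.7 CPM in siSTAT3 livers and 38.2 ± 1.67 in siCntrl livers, and 87.7 ± 8.59 in mASO STAT3 livers and 42 ± 5.77 in mASO Scrbl livers. On library totals 2 of the 5 were called higher and none lower in either arm, and Psme1, a subunit of the proteasome activator, turned to −0.080 in siSTAT3 livers and −0.16 in mASO STAT3 livers. Of the 3 constitutive subunits that these replace, Psmb5 was lower in both arms, with log2 fold changes of −0.51 in siSTAT3 livers and −0.48 in mASO STAT3 livers, and Psmb6 and Psmb7 were not called. On library totals all 3 were lower in both arms. The count of 1 fell to 0 without siSTAT3 library 1 or 3 or siCntrl library 1 or 3, and without mASO STAT3 library 2 or 3 or mASO Scrbl library 1 or 2.

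The chaperones of the endoplasmic reticulum went the other way from tapasin. Of 5 tested genes of peptide loading, 3 were lower and 1 was higher in siSTAT3 livers, and 2 were lower and 1 was higher in mASO STAT3 livers. Calr, which encodes the lectin chaperone calreticulin, had 702 ± 99.4 CPM in siSTAT3 livers and 1402 ± 277 in siCntrl livers, and 758 ± 129 in mASO STAT3 livers and 1252 ± 160.2 in mASO Scrbl livers. Pdia3, the disulfide isomerase that partners with tapasin, was lower as well, with log2 fold changes of −1.03 ± 0.17 in siSTAT3 livers and −0.78 ± 0.17 in mASO STAT3 livers. Erap1, the aminopeptidase that trims peptides in the endoplasmic reticulum, was higher, with log2 fold changes of 0.60 ± 0.19 and 0.50 ± 0.19, a call lost without siSTAT3 library 1 or 3, siCntrl library 2 or 3, or any 1 library of the mASO arm, and its sign turned in mASO STAT3 livers on library totals, at −0.082. On that scaling 0 of the 5 genes were higher and 4 lower in both arms.

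For class II, 7 genes of endosomal processing were tested, of which 1 was higher and 4 were lower in siSTAT3 livers and 1 was higher and 2 were lower in mASO STAT3 livers. On library totals 1 was higher and 6 were lower in siSTAT3 livers, and 1 was higher and 4 were lower in mASO STAT3 livers. With TMM scaling 23.4% of all genes were called lower in siSTAT3 livers and 22.5% in mASO STAT3 livers. Ctsh, a cathepsin with aminopeptidase activity, had 422 ± 14.4 CPM in siSTAT3 livers and 214 ± 27.5 in siCntrl livers, and 415 ± 40.8 in mASO STAT3 livers and 177 ± 16.8 in mASO Scrbl livers. Lgmn, an asparaginyl endopeptidase, had 81.3 ± 8.24 CPM in siSTAT3 livers and 469 ± 97.6 in siCntrl livers, and 83.7 ± 4.80 in mASO STAT3 livers and 338 ± 34.7 in mASO Scrbl livers. Its log2 fold changes were −2.53 ± 0.16 in siSTAT3 livers and −2.01 ± 0.16 in mASO STAT3 livers. Ctsl was lower in both arms, with log2 fold changes of −0.49 in siSTAT3 livers and −0.70 in mASO STAT3 livers. Ctss, the cathepsin that degrades the invariant chain in antigen-presenting cells, was lower in siSTAT3 livers, with 61.5 ± 13.8 CPM against 167 ± 92.2 in siCntrl livers, and not called in mASO STAT3 livers, with 69.5 ± 7.65 CPM against 107 ± 22.1 in mASO Scrbl livers. Ifi30, the thiol reductase of the endosome, was lower in siSTAT3 livers with a log2 fold change of −0.70 and was not called in mASO STAT3 livers with 0.07.

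**Figure D5:**
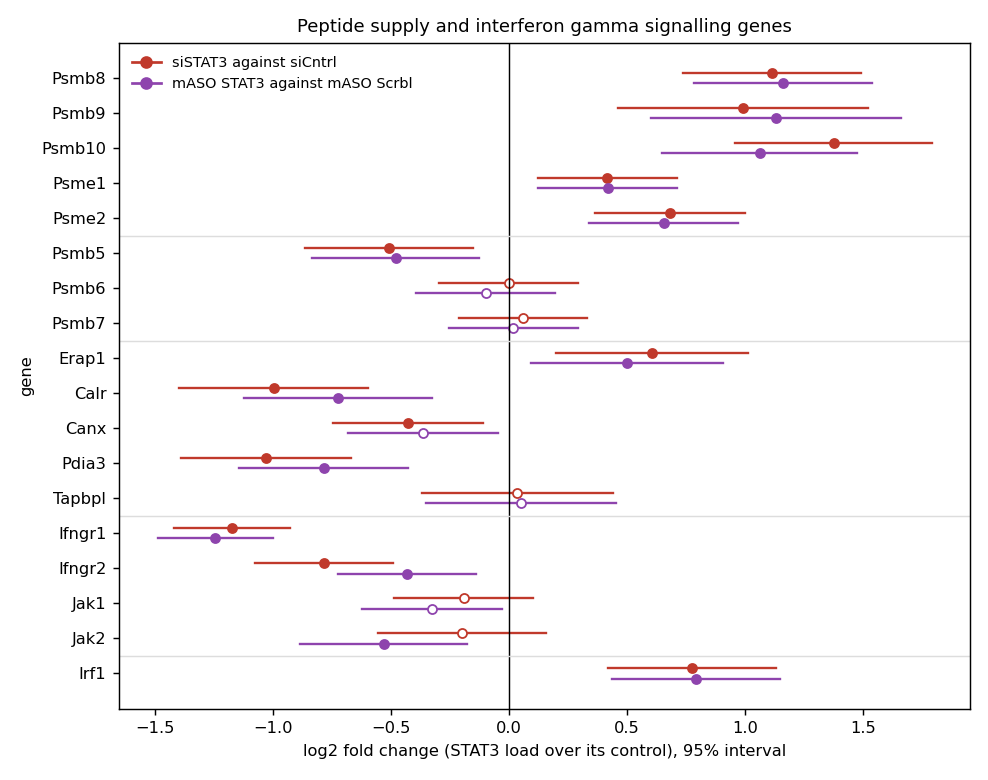
Log2 fold change with its 95% interval (x axis) for genes of peptide supply and interferon gamma signalling (rows), siSTAT3 against siCntrl above mASO STAT3 against mASO Scrbl in each row, filled where called at an adjusted p under 0.05. The 5 immunoproteasome genes at the top lie above 0 in both arms, though Psme1 turns below 0 on library totals, Calr and Pdia3 and the receptor genes Ifngr1 and Ifngr2 lie below 0, and Irf1 lies above 0.

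Of the factors that act at MHC promoters, 10 genes were tested. Irf1, the interferon regulatory factor that binds the interferon core, was higher, with 46.2 ± 6.60 CPM in siSTAT3 livers and 27 ± 6.69 in siCntrl livers, and 46.6 ± 2.37 in mASO STAT3 livers and 27 ± 2.44 in mASO Scrbl livers. Its log2 fold changes were 0.77 ± 0.17 (edgeR adjusted p = 0.00186) in siSTAT3 livers and 0.79 ± 0.17 (edgeR adjusted p = 0.00165) in mASO STAT3 livers. Nfya and Nfyb, subunits of the factor that binds the Y box, and Creb1, which binds the X2 box, were lower in siSTAT3 livers, with log2 fold changes of −0.92, −0.38 and −0.61, and were not called in mASO STAT3 livers. Rfx5, Rfxap, Rfxank, Nfyc and Irf2 were not called in either arm. Calls of the list moved to 2 higher and 3 lower without siSTAT3 library 2 or siCntrl library 2, to 3 higher and 2 lower without siCntrl library 1, and to 1 higher and 1 lower in the mASO arm without mASO STAT3 library 2. On library totals 0 were higher and 4 lower in siSTAT3 livers, and 0 higher and 7 lower in mASO STAT3 livers. With that scaling 7266 of all 15720 genes were lower in siSTAT3 livers and 7939 in mASO STAT3 livers.

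Of 4 tested genes of the interferon gamma receptor and its kinases, 2 were lower in siSTAT3 livers and 3 in mASO STAT3 livers, and on library totals all 4 were lower in both arms. Ifngr1, the ligand-binding chain of the receptor, had 33.4 ± 0.997 CPM in siSTAT3 livers and 75.4 ± 8.82 in siCntrl livers, and 33.1 ± 1.37 in mASO STAT3 livers and 78.4 ± 2.94 in mASO Scrbl livers. Ifngr2 was lower as well, with log2 fold changes of −0.78 in siSTAT3 livers and −0.43 in mASO STAT3 livers. Of 16 tested target genes of interferon gamma, 7 were called higher in siSTAT3 livers, where 22.4% of all genes were, and 2 in mASO STAT3 livers, where 21.3% of all genes were, and none was lower. Cxcl9, a chemokine for T cells, had 16.6 ± 8.80 CPM in siSTAT3 livers and 3.34 ± 0.182 in siCntrl livers, and 19.7 ± 2.10 in mASO STAT3 livers and 5.48 ± 0.0458 in mASO Scrbl livers. Igtp, an immunity-related GTPase, had 73.6 ± 29.2 CPM in siSTAT3 livers and 24.8 ± 4.82 in siCntrl livers, and 66.9 ± 13.3 in mASO STAT3 livers and 30.6 ± 0.507 in mASO Scrbl livers. Only 3 of the 16 were higher in siSTAT3 livers without siSTAT3 library 3, while 7 were higher and 1 was lower without siCntrl library 1, and on library totals 4 were higher and 1 lower in siSTAT3 livers and 1 higher in mASO STAT3 livers. Ifng itself was below the filter.

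Of 16 target genes of type I interferon, 5 were higher and 0 lower in siSTAT3 livers, where 22.4% of all genes were higher and 23.4% lower. In mASO STAT3 livers 4 were higher and 6 lower, where 21.3% and 22.5% of all genes were. Ifit3, an interferon-induced antiviral gene, was higher in both, with 12.2 ± 1.90 CPM in siSTAT3 livers and 3.99 ± 0.683 in siCntrl livers, and 9.02 ± 0.864 in mASO STAT3 livers and 5.42 ± 1.76 in mASO Scrbl livers. Isg15, a ubiquitin-like modifier, had 14.8 ± 2.13 CPM in mASO STAT3 livers and 62.9 ± 15.5 in mASO Scrbl livers, a log2 fold change of −2.08 ± 0.30 (edgeR adjusted p = 0.000131), and 16.3 ± 2.10 CPM in siSTAT3 livers and 22.4 ± 11.3 in siCntrl livers, which was not called. Irf7, a regulator of type I interferon genes, had 36.5 ± 4.46 CPM in mASO STAT3 livers and 90.6 ± 12.7 in mASO Scrbl livers, and 56.1 ± 13.1 in siSTAT3 livers and 43.4 ± 9.56 in siCntrl livers. None of the 16 passed the test of the difference between the arms. The counts were 2 higher and 5 lower without mASO STAT3 library 3, 2 higher and 4 lower without mASO Scrbl library 1, 2 higher and 5 lower without mASO Scrbl library 2, and 6 higher and 1 lower in the siRNA arm without siCntrl library 2. On library totals 3 were higher and 3 lower in siSTAT3 livers, and 0 were higher and 10 lower in mASO STAT3 livers.

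Class I-like genes outside the H2 complex were mostly higher as well. Of 6 tested, 4 were higher and 1 lower in both arms, against 1 higher and 2 lower in siSTAT3 livers and 3 higher and 2 lower in mASO STAT3 livers on library totals. Azgp1, which encodes a secreted class I-like glycoprotein, had 1640.3 ± 105 CPM in siSTAT3 livers and 628 ± 137 in siCntrl livers, and 1453 ± 146 in mASO STAT3 livers and 559.9 ± 29.6 in mASO Scrbl livers. Fcgrt, the neonatal Fc receptor that pairs with beta-2-microglobulin, had 254 ± 19.4 CPM in siSTAT3 livers and 149.6 ± 25.2 in siCntrl livers, and 231 ± 29.2 in mASO STAT3 livers and 118 ± 6.87 in mASO Scrbl livers. Cd1d1, which presents lipids to natural killer T cells, and Hfe, a regulator of iron uptake, were the other genes higher in both, though Hfe turned to −0.11 in siSTAT3 livers and −0.26 in mASO STAT3 livers on library totals. Cd1d2, the close copy of Cd1d1, was lower, with 2.23 ± 0.368 CPM in siSTAT3 livers and 7.66 ± 2.15 in siCntrl livers, and 2.61 ± 0.357 in mASO STAT3 livers and 5.76 ± 2.19 in mASO Scrbl livers. Reads of the 2 copies may be split between them, so this contrast is uncertain. Of 4 tested costimulatory genes, which antigen-presenting cells show beside class II, none was higher, and Cd40 was lower in both arms, with 0.491 ± 0.269 CPM in siSTAT3 livers and 1.88 ± 0.450 in siCntrl livers, and 0.504 ± 0.0364 in mASO STAT3 livers and 1.37 ± 0.673 in mASO Scrbl livers. The siRNA arm called 2 lower, Cd80 and Cd40, which became 1 without siSTAT3 library 1 or 3 or siCntrl library 2 or 3, and the mASO call was lost without any 1 library except mASO Scrbl library 2. On library totals 4 were lower in siSTAT3 livers and 1 in mASO STAT3 livers.

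Markers of the liver's cell types moved beside these genes, and in whole tissue fewer cells of a type and less RNA per cell cannot be told apart. Calls over all genes were 22.4% higher and 23.4% lower in siSTAT3 livers and 21.3% higher and 22.5% lower in mASO STAT3 livers. With library totals they were 1655 higher and 7266 lower of 15720 genes in siSTAT3 livers, and 1525 and 7939 in mASO STAT3 livers. Of 7 hepatocyte markers, 4 were higher in siSTAT3 livers and 5 in mASO STAT3 livers, but on library totals 1 was higher and 2 lower in siSTAT3 livers and 2 higher and 1 lower in mASO STAT3 livers. Their summed level was 124843 to 135075 CPM in siSTAT3 livers, 53799 to 91115 in siCntrl livers, 108183 to 148101 in mASO STAT3 livers and 57861 to 87626 in mASO Scrbl livers. The median log2 fold change of this list was 0.86 in siSTAT3 livers and 0.84 in mASO STAT3 livers, beside 1.43 and 1.71 for H2-Q10. In siSTAT3 livers the list ran from −0.34 for Fgb to 1.51 for Apoc3, so Apoc3 rose more than H2-Q10 there. On library totals Apoc3 had 1.02 and H2-Q10 0.95 in siSTAT3 livers. Among the cells that carry class II, 1 of 9 dendritic cell markers was higher and 2 were lower in siSTAT3 livers, and 4 were higher and 1 was lower in mASO STAT3 livers. The balance turned on library totals, with 0 higher and 4 lower in siSTAT3 livers and 1 higher and 2 lower in mASO STAT3 livers. Their summed level was 13.5 to 21.9 CPM in siSTAT3 livers, 15.9 to 32.0 in siCntrl livers, 13.6 to 22.3 in mASO STAT3 livers and 14.4 to 20.4 in mASO Scrbl livers, so the groups overlapped. Of 6 B cell markers 0 were called in siSTAT3 livers and 3 were higher in mASO STAT3 livers, of which 0 were called on library totals, with summed levels of 7.07 to 9.43 CPM in siSTAT3 livers, 3.97 to 9.69 in siCntrl livers, 8.21 to 14 in mASO STAT3 livers and 4.81 to 5.84 in mASO Scrbl livers.

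Of 7 Kupffer cell markers, 1 was higher and 1 lower in siSTAT3 livers and 2 were higher and 1 lower in mASO STAT3 livers, with summed levels of 307 to 466 CPM in siSTAT3 livers, 203 to 513 in siCntrl livers, 368 to 413 in mASO STAT3 livers and 203 to 448 in mASO Scrbl livers. Markers of monocytes and recruited macrophages were lower, 6 of 7 in siSTAT3 livers and 4 of 7 in mASO STAT3 livers, with summed levels of 177 to 203 CPM in siSTAT3 livers, 356 to 772 in siCntrl livers, 182 to 238 in mASO STAT3 livers and 370.0 to 527 in mASO Scrbl livers. Cd68, a lysosomal protein of macrophages, was among them, with 19.3 ± 3.15 CPM in siSTAT3 livers and 105 ± 31.3 in siCntrl livers. Of 10 tested T and natural killer cell markers 1 was higher and 2 were lower in siSTAT3 livers and 4 were higher in mASO STAT3 livers. Of 8 markers of sinusoidal endothelium 3 were lower in siSTAT3 livers, and 1 was higher and 2 were lower in mASO STAT3 livers. Of 5 cholangiocyte markers 4 were lower in siSTAT3 livers and 3 in mASO STAT3 livers. Some of these counts change when 1 library is left out, most of all in the thinly counted lists: the dendritic cell list gave between 0 and 1 higher and 1 and 3 lower in siSTAT3 livers and between 1 and 4 higher in mASO STAT3 livers, and the B cell list reached 2 higher in siSTAT3 livers without siCntrl library 2 and 0 in mASO STAT3 livers without mASO STAT3 library 1. With 1 library left out, the Kupffer cell list gave 0 to 2 higher in siSTAT3 livers and 0 to 3 in mASO STAT3 livers, and the monocyte list 5 to 6 lower in siSTAT3 livers and 4 in mASO STAT3 livers. No marker of these lists was at 0 counts in a whole group. On library totals no Kupffer cell marker was called higher and 1 was lower in each arm, and 6 monocyte markers were lower in each arm. On that scaling 0 T and natural killer cell markers were higher and 2 lower in siSTAT3 livers and 1 was higher in mASO STAT3 livers, 6 endothelial markers were lower in siSTAT3 livers and 3 in mASO STAT3 livers, and 5 cholangiocyte markers were lower in siSTAT3 livers and 4 in mASO STAT3 livers. The part of any of these cell types in the changes of the MHC genes was not tested.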

How the data were processed

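Per the labels' protocols, liver RNA was extracted with TRIzol and sequenced after a stranded Illumina mRNA kit. The analysis starts from the raw count table that the authors deposited, with 1 row per gene symbol and no scaling. Their other deposited table gives a normalized signal, each value being the raw count over a factor of its library; this was checked and the table then set aside. The submitters' processing notes name TopHat and Cufflinks and give neither versions nor roles. For the build, annotation, counting tool and strand setting, nothing is stated in the sources used here.

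A model per gene was fitted to the 12 libraries in edgeR 4.0.16 under R 4.3.3, with the 4 groups as its terms, TMM scaling and a filter by group (minimum count 10, minimum total 15), which kept 15720 genes. Group differences were tested by quasi-likelihood F tests (robust option, 8 residual degrees of freedom), and p-values were adjusted by Benjamini-Hochberg over these genes, with calls at 0.05. The SE is the size of the log2 fold change divided by the square root of F. Depth was 39844158 to 67791159 counts per library. The members, the gene lists and the rule for named genes were chosen with earlier results of these data known. All members are named, and from each list up to 4 genes with the smallest p in either arm and those going against the majority could be named. The examples printed were picked among these after their values were seen, and genes outside the rule were named to fill a count of 5 or fewer or to say that they were not called. Counted by chi-square, libraries of a group differed by 52.6 to 222 per degree of freedom, so none was a duplicate. Alternatives were DESeq2 1.42.0 (its size factors and its Wald test), limma 3.58.1 voom, library totals, no filter, a filter at 1 CPM, the replicate number as a block, a fit to 1 arm's libraries, and the omission of every library in turn. Class sums carry no test. The fit was also tested on simulated data with 200 genes changed, far fewer than were called in the real data. Changes of 1 on the log2 scale were recovered at 52.1% in the siRNA arm and 46.9% in the mASO arm. For changes of 2 the rates were 78.8% and 74.7%. False calls made up 3.76% and 7.03% of the calls, the latter above the limit of 0.05. A member that was not called may thus still differ. RefSeq and GENCODE matched all 45 members, 43 of them by symbol in RefSeq.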

Additional observations from a re-analysis of the deposited data

How the results depend on the processing

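On library totals the number of higher members was 2 in siSTAT3 livers and 10 in mASO STAT3 livers, and that of lower members 6 and 4. Without a filter and with the replicate block the number of lower members in mASO STAT3 livers was 0. Leaving out 1 library gave 7 to 16 higher and 0 to 2 lower members in siSTAT3 livers, and 17 to 22 higher and 0 lower in mASO STAT3 livers. Among values called in either setting, the log2 fold change turned negative on library totals in siSTAT3 livers for H2-D1 (−0.42), H2-K1 (−0.0060), H2-Ke2 (−0.025) and Tap2 (−0.44), and in mASO STAT3 livers for H2-D1 (−0.032), H2-Ke2 (−0.14), H2-Q4 (−0.027), H2-Q6 (−0.18), Tap1 (−0.55), Tap2 (−0.40) and Tapbp (−0.042), where the construction of this scaling shifts all genes down. Over all genes it called 1655 higher and 7266 lower in siSTAT3 livers, against 3515 and 3675 as reported, and 1525 higher and 7939 lower in mASO STAT3 livers, against 3344 and 3542. H2-Q10 and H2-T23 in both arms, and H2-Aa, H2-Ab1, H2-Ea-ps, H2-Eb1, Cd74, H2-DMb1, H2-Oa and H2-Ob in mASO STAT3 livers, passed in every setting in which they were tested. Other members lost a call in 46 values of the siRNA arm and 41 of the mASO arm and gained one in 13 and 10, all with unchanged direction. The replicate block, tried because groups share replicate numbers, gave 12 higher and 1 lower member in siSTAT3 livers and 23 higher and 0 lower in mASO STAT3 livers. Residuals of libraries with the same number correlated at −0.156 to 0.296, and samples were not treated as paired. Counts were also summed into 1 row per class before the fit, so that reads split among paralogs count once. In siSTAT3 livers the log2 fold change was then 0.25 for classical and 1.11 for non-classical class I. In mASO STAT3 livers these were 0.64 and 1.39. For classical and non-classical class II they were 0.62 and 0.09 in siSTAT3 livers, and 1.43 and 0.97 in mASO STAT3 livers. Much of the non-classical class I sum was H2-Q10. Without H2-Q10, the log2 ratio of the mean summed CPM was 0.62 in siSTAT3 livers and 0.92 in mASO STAT3 livers. Outside library totals the cause of these changes was not tested. Depth limits the 10 members below the filter and, among those tested, H2-Oa and H2-Ke6, which had under 20 counts in every library, and H2-Ob, which had 11 to 59.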
